A study of Mus musculus with 30 samples.

Results

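Genes of the epithelial to mesenchymal transition (EMT), 10 in number, were followed through co-cultures of mouse lung epithelial cells and fibroblasts: the transcription factors Snai1, Snai2, Zeb1, Zeb2, Twist1 and Twist2, the cadherins Cdh1 and Cdh2, and the mesenchymal genes Vim and Fn1. They were picked by symbol from a list of known EMT genes, with earlier results of these data known, and are 10 of the 55487 genes counted in each library. All 10 had enough reads to be tested in every comparison.

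EMT is the programme by which epithelial cells loosen their contacts and take on features of migrating mesenchymal cells. Transcription factors of the Snail, ZEB and Twist families bind E-box motifs and repress epithelial genes, E-cadherin (Cdh1) foremost, while N-cadherin (Cdh2), vimentin (Vim) and fibronectin (Fn1) rise. TGF-β is the best known inducer of the programme, and in the lung it is studied as part of fibrosis. The same transcription factors, N-cadherin, vimentin and fibronectin are made by fibroblasts in their ordinary state, so their RNA in a sample of epithelial cells can come from either cell type.

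CD31-CD45-Epcam+ cells were isolated from lungs of adult wild type C57BL/6J mice, 300000 per culture, and mixed at equal number with CCL206 lung fibroblasts, a mouse cell line kept from dividing by mitomycin C. The cells were grown together in Matrigel and exposed for 72 h to vehicle, to the exacerbation cocktail EC (TNF-α with IL-6, IL-1β and IL-8 by the labels, where the methods give the chemokine KC in place of IL-8 for mouse cells), to the cocktail IPFc (TGF-β, TNF-α, TSLP and CCL2 with the interleukins IL-33, IL-13, IL-8, IL-4 and IL-1β) or to TGF-β alone at 2 ng/ml. IPFc therefore also contained TGF-β. The cells were then separated again with Epcam microbeads, and each fraction was sequenced as bulk RNA. Libraries of Epcam+ cells are called epithelial libraries here, and those of the CCL206 fraction fibroblast libraries. Every fraction and treatment had cultures from 4 mice, with 2 exceptions that were not analysed here: mouse 2 for fibroblasts with vehicle, and mouse 1 for epithelial cells with TGF-β. The fibroblasts were 1 cell line in every culture, so the 4 mice are separate sources of epithelial cells but not of fibroblasts, and p-values for fibroblast libraries measure the spread between cultures of that line.

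The 30 libraries held 5113828 to 20317181 counted reads, the fewest in the fibroblast EC library of mouse 1. Levels are given as CPM, the read count of a gene scaled to a common library total, with the SD over mice. Reads were counted without molecular identifiers as far as the methods describe, so read numbers cover counting error only. Some library titles carry an added letter whose meaning is not stated, and between a treated culture and its vehicle culture it differed for mouse 3 alone, so values without mouse 3 are those within 1 kind of title. Epcam averaged 216 CPM in epithelial and 34.7 CPM in fibroblast vehicle libraries, and Pdgfra, a fibroblast receptor, 19.0 and 348 CPM. Thy1, a surface marker of many fibroblasts, was at or near 0 in all 8 groups. Summed over 18 immune genes the libraries held 2.65 to 21.3 CPM, and over 12 endothelial genes 6.98 to 32.7 CPM. Of 4 mesothelial genes Msln alone was well above 0, at a mean of 815 CPM in epithelial vehicle and 555 CPM in epithelial TGF-β libraries, and Upk3b, Wt1 and Lrrn4 were under 1 CPM in every group. Genes of smooth muscle and pericytes summed to 141 to 155 CPM in epithelial TGF-β and 20.6 to 39.2 CPM in epithelial vehicle libraries, moving with Cdh2 and Vim, and to 480 to 562 CPM in fibroblast TGF-β libraries. The largest were Cspg4 and Notch3, at 72.6 and 52.7 CPM in epithelial and 323 and 181 CPM in fibroblast TGF-β libraries. Rgs5 was at 18.0 CPM in epithelial and 0.0546 CPM in fibroblast TGF-β libraries. Myh11, Cnn1 and Des were at 0.246, 1.59 and 2.52 CPM in epithelial TGF-β libraries. Their part in the results was not tested. In bulk libraries, fewer cells of a type and less RNA per cell cannot be told apart.

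RefSeq promoter sequences (GRCm38.p6) were at hand for 5 of the 10 genes, namely Snai1, Zeb2, Twist1, Twist2 and Vim. In the 250 bases before each start site, 3 motifs were searched on both strands: the E-box of Snail and ZEB factors (CACCTG or CAGGTG), the SMAD box bound by the factors that carry the TGF-β signal (CAGAC or GTCTG), and the AP-1 motif (TGANTCA). The Snai1 window, at chr2:167537945-167538194 on the plus strand, is shown because it was the 1 window with an E-box, which is in capitals and begins 126 bases before the start site. The Vim window, at chr2:13574061-13574310 on the plus strand, is shown beside it because Vim is a mesenchymal gene and held none of the 3 motifs.
Snai1: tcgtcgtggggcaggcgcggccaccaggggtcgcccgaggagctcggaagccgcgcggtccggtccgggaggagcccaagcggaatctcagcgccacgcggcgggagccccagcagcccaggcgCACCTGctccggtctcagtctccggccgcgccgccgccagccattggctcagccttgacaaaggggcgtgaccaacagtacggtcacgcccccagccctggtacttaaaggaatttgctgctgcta
Vim: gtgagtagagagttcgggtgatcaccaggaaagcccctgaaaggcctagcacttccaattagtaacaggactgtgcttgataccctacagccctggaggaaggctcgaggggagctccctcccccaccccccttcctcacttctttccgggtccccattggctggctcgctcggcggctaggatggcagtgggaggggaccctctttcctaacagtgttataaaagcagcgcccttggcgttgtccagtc
An E-box of this form was in 17.1% of the 27025 mouse promoters of the same length. A SMAD box was found for Twist1 alone, beginning 9 bases before its start, and in 42.1% of all promoters. The AP-1 motif was found at 1 of the 4 start sites listed for Zeb2, with 2 matches, and in 6.87% of promoters. The shares of promoters took only the first start site listed for each gene, and that of Zeb2 held no AP-1 motif. These matches describe the letters of the windows, and no binding was measured.

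The separation into fractions was not complete, and its purity differed between treatments, which bears on every level below. How much RNA of a library came from the other cell type was estimated from 30 reference genes of that cell type. For each reference gene of at least 50 CPM in the partner library (the other fraction of the same culture, or that group's mean where it was not there), the CPM was divided by the partner's, and the median of these ratios was taken. None of the 10 genes was among the reference genes. The partner libraries were themselves mixed, and the ratio was not corrected for this. It therefore overstates the share, and more so where the partner was less pure. In epithelial libraries the share of fibroblast RNA was 9.60, 5.12, 4.30 and 5.24% with vehicle for mice 1 to 4, and 27.5, 26.1 and 31.3% with TGF-β for mice 2 to 4. The TGF-β values lay above all others, at a mean of 28.3% ± 2.70 against 6.06% ± 2.39 (SD, n = 3 and 4; exact two-sided permutation test, p = 0.0286, the smallest this design allows; adjusted p = 0.0856 over 3 treatments). With EC the ratio was 16.8, 13.1, 5.34 and 11.4%, and with IPFc 14.7, 16.1, 4.89 and 9.54%, above the same mouse's vehicle culture in 4 of 4 mice each. The fibroblast partners were less pure with EC, at 44.0% epithelial RNA against 22.8% with vehicle by the same kind of ratio. Whether the share itself rose with EC in each mouse was not tested. The differences of EC and IPFc from vehicle did not pass (exact permutation test, p = 0.0571 and 0.2, adjusted p = 0.0856 and 0.2). By an adjusted p under 0.05 the TGF-β difference did not pass either. The permutation test, here and below, does not pair the cultures of a mouse, so it does not test the rise within mice. The estimate takes the reference genes as fibroblast RNA, so such RNA made by the Epcam+ cells themselves would count as carried over. A second estimate used Xist alone, an RNA of female cells that is no fibroblast gene. It gave 15.9, 5.04, 3.13 and 5.56% with vehicle for mice 1 to 4. With TGF-β it gave 24.8, 35.8 and 38.2% for mice 2 to 4, again without overlap with vehicle. With EC it gave 45.8, 18.6, 5.28 and 7.21% for mice 1 to 4, and with IPFc a mean of 9.96% ± 3.66. The EC library of mouse 1 was thus above every TGF-β library by Xist, where the first estimate gave 16.8%. The Xist estimate rests on 1 gene. The paper used male and female mice, and the labels do not give the sex of each mouse. Y-linked RNA (Ddx3y, Eif2s3y, Kdm5d or Uty) reached at least 10 CPM in epithelial libraries of all 4 mice.

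In fibroblast libraries the share of epithelial RNA rose with EC and fell with TGF-β. It was 19.0, 17.3 and 32.0% with vehicle for mice 1, 3 and 4, and 40.5, 38.5, 38.9 and 58.2% with EC for mice 1 to 4, with no overlap between the groups (exact permutation test, p = 0.0286, adjusted p = 0.0429). With TGF-β it was 1.37, 2.88, 1.04 and 3.90%, below all vehicle libraries (p = 0.0286, adjusted p = 0.0429 in the exact permutation test). With IPFc it averaged 19.8% ± 9.59 against 22.8% ± 8.0 with vehicle (exact permutation test, p = 0.571). A second estimate used the Y-linked genes Ddx3y, Eif2s3y, Kdm5d and Uty where they had at least 10 CPM in the partner. It gave 16.3, 25.1 and 19.1% with vehicle for mice 1, 3 and 4, and 49.9, 34.3, 30.0 and 30.7% with EC for mice 1 to 4. With TGF-β it gave 0.224 to 1.89%. The EC library of mouse 4 was thus the highest of its group by the first estimate but not by the second.

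**Figure D1:**
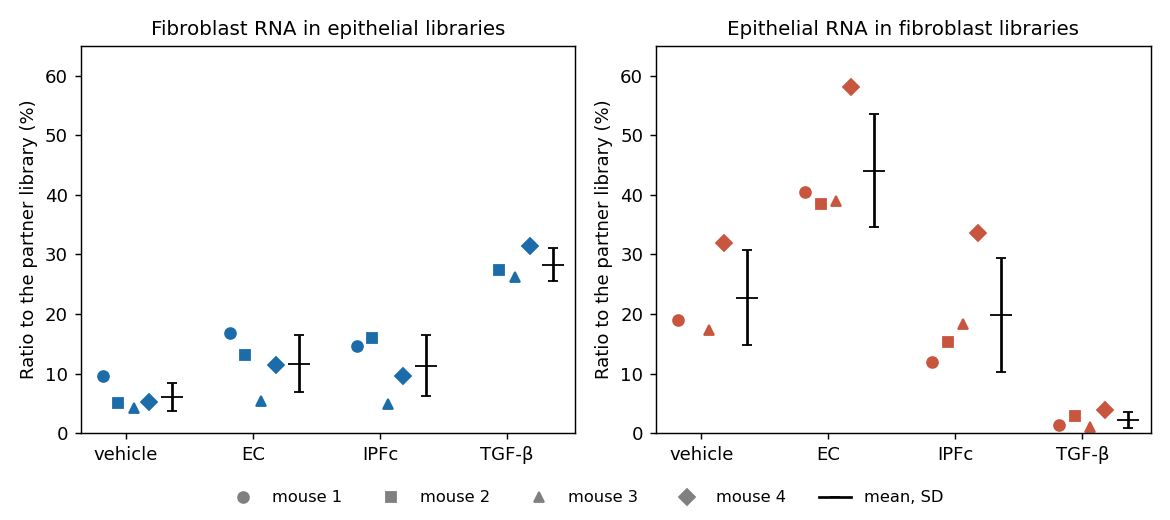
Ratio to the partner library in percent, for fibroblast RNA in epithelial libraries (left) and epithelial RNA in fibroblast libraries (right), by treatment. Points are libraries with the mouse as symbol, and bars are the mean and SD. TGF-β libraries hold the most fibroblast RNA on the left (26.1 to 31.3%) and the least epithelial RNA on the right (1.04 to 3.90%).

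The genes are spread over the genome, with Snai1, Zeb2 and Vim on mouse chromosome 2, Twist2 and Fn1 on chromosome 1, Zeb1 and Cdh2 on chromosome 18, Cdh1 on chromosome 8, Twist1 on chromosome 12 and Snai2 on chromosome 16. Levels of different genes were compared only per kilobase of exon, over the union of each gene's exons. In epithelial vehicle libraries Cdh1 had the highest level of the 10 genes, at 166 CPM per kb, followed by Vim at 35.3 and Fn1 at 31.4 CPM per kb, and Zeb2 the lowest at 0.165 CPM per kb. With TGF-β the order at the top of the epithelial libraries was Fn1 at 523, Vim at 212 and Cdh1 at 192 CPM per kb. In fibroblast vehicle libraries Vim led at 685 CPM per kb, ahead of Fn1 at 525 and Cdh1 at 33.8 CPM per kb, and with TGF-β Fn1 led at 1172 CPM per kb and Cdh1 was lowest at 3.13 CPM per kb.

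Across the 8 groups, the 9 genes other than Cdh1 had their highest mean in a fibroblast group. Snai1, Zeb1, Twist1, Cdh2, Vim and Fn1 were highest in fibroblast TGF-β libraries, Snai2 and Twist2 in fibroblast vehicle libraries and Zeb2 in fibroblast IPFc libraries. The lowest mean of these 9 genes was in epithelial vehicle libraries, except Twist1, whose lowest was in epithelial EC libraries. Of the 7 pairs of neighbouring groups in each gene's order, 4 to 6 overlapped in their libraries. For Cdh1 the order was epithelial TGF-β (892 CPM), epithelial vehicle (769 CPM), epithelial IPFc (731 CPM), epithelial EC (716 CPM), fibroblast EC (293 CPM), fibroblast vehicle (157 CPM), fibroblast IPFc (145 CPM) and fibroblast TGF-β (14.5 CPM). Its neighbours were separate at 3 steps, below epithelial TGF-β, between the fractions and above fibroblast TGF-β. For Fn1 the epithelial TGF-β group, at 8281 CPM, stood next to the fibroblast vehicle group at 8304 CPM and overlapped with it.

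**Figure D2:**
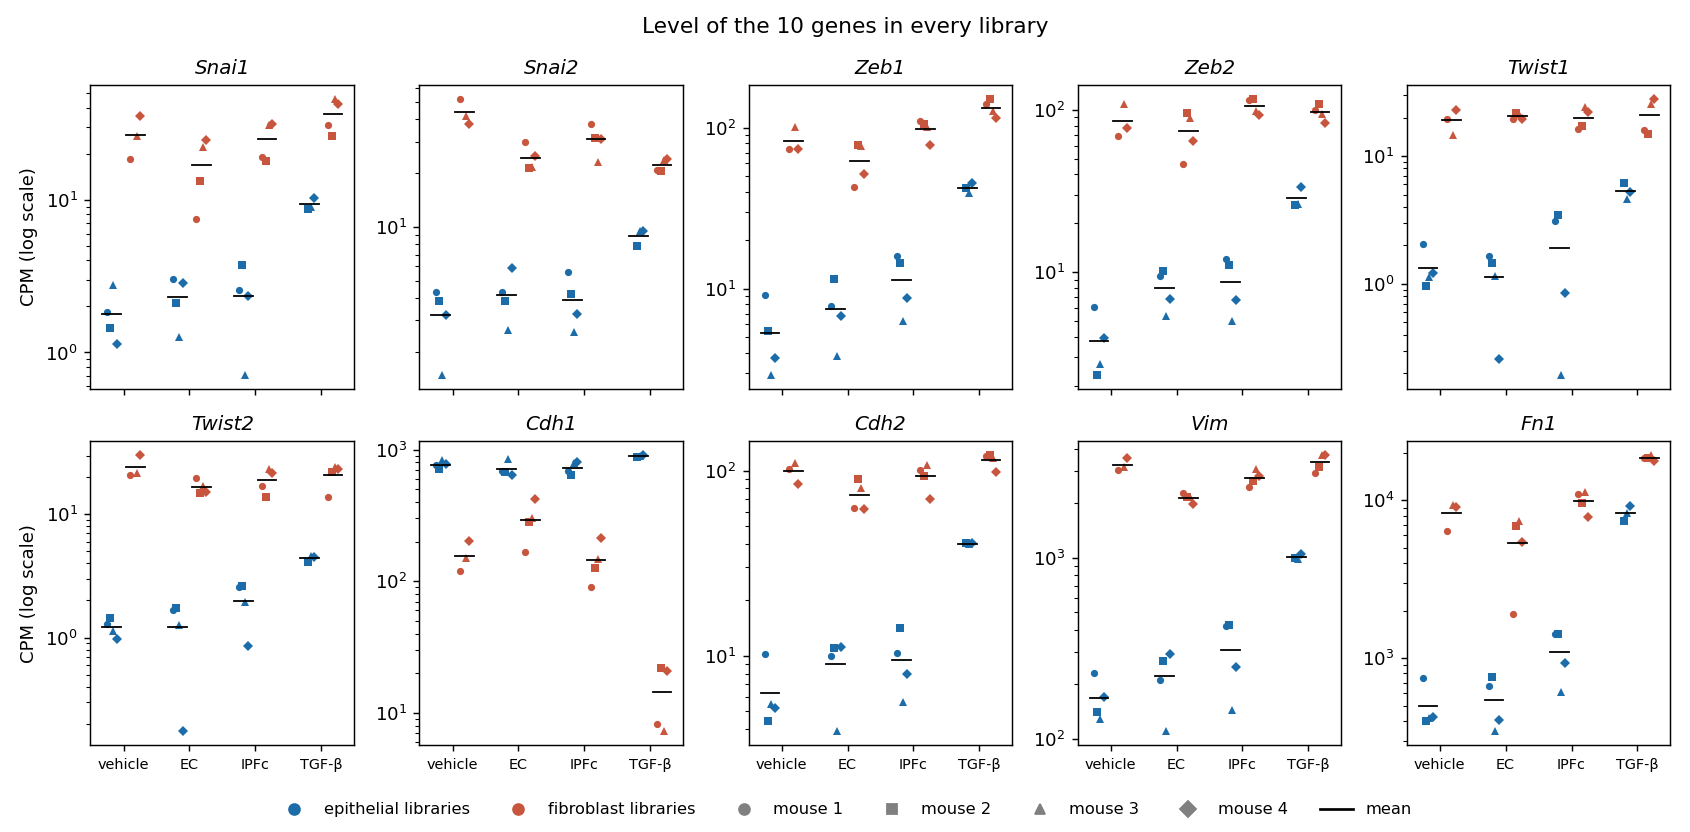
Level of each gene (CPM, log scale) in epithelial (blue) and fibroblast (red) libraries by treatment, with mice as symbols and lines at the mean. In the 9 genes other than Cdh1 the epithelial TGF-β libraries sit above the other epithelial groups, and Cdh1 drops in the fibroblast TGF-β libraries to 7.23 to 21.9 CPM.

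With vehicle, epithelial and fibroblast libraries differed in all 10 genes, where 58.4% of 18364 genes passed the same test (edgeR quasi-likelihood, Benjamini-Hochberg adjusted p under 0.05), 29.1% higher and 29.4% lower in epithelial libraries. Cdh1 was 5.14-fold higher in epithelial libraries (log2 fold change 2.36 ± 0.19 SE, adjusted p = 5.37e-11). The other 9 genes were lower there, by 11.5-fold for Snai1 to 22.5-fold for Zeb2. With EC, IPFc and TGF-β the fractions again differed in 10 of 10 genes in the same directions, where 52.7%, 61.2% and 50.2% of all genes passed. The distance between the fractions was smallest with TGF-β, from 2.11-fold lower for Fn1 to 4.75-fold lower for Twist2 in epithelial libraries, while Cdh1 was 61.3-fold higher (log2 fold change 5.94 ± 0.21, edgeR adjusted p = 4.71e-18). With the other fraction's RNA subtracted from each library, all 10 genes differed with vehicle, EC and IPFc, where 49.9%, 56.5% and 54.8% of all genes passed. With TGF-β 8 of 10 did, where 43.4% passed, and the exceptions were Vim and Fn1 (log2 values of -2.34 and 0.62, edgeR adjusted p = 0.565 and 0.852). Subtraction itself widens the distance, since it leaves little of genes whose epithelial level is near that of the carried-over RNA. With vehicle the median log2 value of the 10 genes went from -3.96 to -7.74. These calls are therefore no independent check of a difference between the cells.

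The change from vehicle to TGF-β in epithelial libraries asks whether the epithelial cells take up the EMT programme. All 6 transcription factors, Cdh2, Vim and Fn1 were upregulated and Cdh1 was not called, so 9 of 10 genes passed the test in edgeR against 41.1% of 18024 genes, 21.0% higher and 20.1% lower. The rise was from 3.00-fold for Snai2 to 18.0-fold for Fn1, and each of the 9 was higher in 3 of 3 mice. The fibroblast RNA of these libraries rose at the same time, from 6.06% to 28.3%. When each library was tested against the level expected from vehicle epithelial RNA plus its own carried-over fibroblast RNA, Fn1 and Cdh1 were called, both higher, and the other 8 genes were not. The share from the reference genes was taken as known there, so these p-values leave out the error of the share. In that test 21.2% of all genes passed, 7.98% of all genes higher. With fibroblast RNA subtracted from the libraries instead, 5 of the 10 genes were called with TGF-β, namely Zeb2, Cdh1, Cdh2, Vim and Fn1, where 26.5% of all genes passed, and none with EC or IPFc, where 1.82% and 1.02% passed. Subtraction leaves little or nothing of a gene at or below the level of its carried-over RNA, and fold changes from such a base are extreme. Vim was observed at 0.87 ± 0.07 times that level with vehicle and 1.02 ± 0.11 times with TGF-β. For Zeb2 the values were 0.75 ± 0.23 and 1.07 ± 0.21.

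Snai1 and Snai2 encode the Snail and Slug zinc finger repressors. In epithelial libraries Snai1 was at 1.84, 1.44, 2.76 and 1.13 CPM with vehicle for mice 1 to 4, which is 14 to 56 reads, and at 8.66, 8.99 and 10.3 CPM with TGF-β for mice 2 to 4. The groups did not overlap, and the log2 fold change was 2.25 ± 0.38 (edgeR adjusted p = 7.28e-05). Beyond carried-over RNA it was -0.15 ± 0.37 (edgeR adjusted p = 0.827). Snai2 was at 4.30, 3.85, 1.48 and 3.23 CPM with vehicle and 7.81, 9.48 and 9.43 CPM with TGF-β, again without overlap. Its log2 fold change was 1.59 ± 0.28 (adjusted p = 8.95e-05 in edgeR), and 0.26 ± 0.29 (adjusted p = 0.58) beyond carried-over RNA.

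Zeb1 and Zeb2 encode the ZEB homeodomain zinc finger repressors. Zeb1 had 9.07, 5.45, 2.90 and 3.71 CPM with vehicle and 42.4, 39.4 and 45.3 CPM with TGF-β, and every TGF-β library was above every vehicle library. The log2 fold change was 3.20 ± 0.22 (edgeR adjusted p = 3.99e-10), the largest among the transcription factors. Zeb2 had 6.07, 2.32, 2.71 and 3.95 CPM with vehicle and 25.8, 26.3 and 33.4 CPM with TGF-β, a log2 fold change of 3.03 ± 0.23 (edgeR adjusted p = 1.28e-09). Beyond carried-over RNA the values were 0.32 ± 0.19 for Zeb1 (adjusted p = 0.283) and 0.51 ± 0.19 for Zeb2 (adjusted p = 0.0672), the latter next to the threshold.

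Twist1 and Twist2 encode basic helix-loop-helix factors of mesoderm. Twist1 had 2.05, 0.96, 1.13 and 1.21 CPM with vehicle and 6.21, 4.62 and 5.20 CPM with TGF-β, and Twist2 had 1.30, 1.44, 1.13 and 0.97 CPM against 4.09, 4.62 and 4.47 CPM. Neither pair of groups overlapped, and the log2 fold changes were 2.15 ± 0.47 and 1.92 ± 0.39 (edgeR adjusted p = 0.000973 and 0.000438). Beyond carried-over RNA both values were negative and not called, at -0.17 ± 0.47 and -0.33 ± 0.40 (adjusted p = 0.849 and 0.624).

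Cdh1 encodes E-cadherin, which joins epithelial cells at adherens junctions, and Cdh2 encodes N-cadherin of mesenchymal and neural cells. In epithelial libraries Cdh1 was at 759, 708, 834 and 774 CPM with vehicle and 872, 895 and 909 CPM with TGF-β. Every TGF-β library was above every vehicle library, yet the difference was small (log2 fold change 0.10 ± 0.09, edgeR adjusted p = 0.428). Against a mixture with the measured fibroblast share, which contributes little Cdh1, it was higher by 0.52 ± 0.09 (adjusted p = 0.000261 in edgeR). A gene of epithelial cells alone whose CPM stays the same comes out higher in that test as the fibroblast share rises. The call of Cdh1 therefore rests on the estimated share. The cells were selected by Epcam, itself an epithelial protein, and where cells that lost it would be found was not tested. Cdh2 was at 10.2, 4.41, 5.46 and 5.24 CPM with vehicle and 40.5, 40.1 and 40.4 CPM with TGF-β (log2 fold change 2.71 ± 0.26, edgeR adjusted p = 4.43e-08). Beyond carried-over RNA the Cdh2 value was 0.23 ± 0.17 (adjusted p = 0.405).

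Vim encodes the intermediate filament of mesenchymal cells and Fn1 the matrix glycoprotein fibronectin. Vim was at 232, 141, 128 and 170 CPM with vehicle and 992, 984 and 1047 CPM with TGF-β (log2 fold change 2.65 ± 0.23, edgeR adjusted p = 8.42e-09). Beyond carried-over RNA its value was 0.06 ± 0.18 (adjusted p = 0.846). Fn1 was at 747, 401, 419 and 425 CPM with vehicle and 7414, 8261 and 9167 CPM with TGF-β, with no overlap and the largest rise of the 10 genes (log2 fold change 4.17 ± 0.19, edgeR adjusted p = 1.96e-12). It was the 1 mesenchymal gene of the 10 called beyond carried-over RNA, at 0.77 ± 0.20 (edgeR adjusted p = 0.00815).

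The level that carried-over RNA alone would give, the share times the partner's CPM, was set beside the observed level in each of the 15 epithelial libraries. Over the 9 genes other than Cdh1 the observed level was 1.00 times the carried-over level in the median of 135 values, with a range of 0.101 to 2.46. It was above 1 in 69 values and within the middle 50% of the reference genes' own ratios in 58. By treatment the medians were 0.980 with vehicle, 0.950 with EC, 0.984 with IPFc and 1.18 with TGF-β.

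Within the TGF-β libraries the genes spread to both sides of that level. Fn1 was observed at 1.58 ± 0.11 times its carried-over level (n = 3, range 1.45 to 1.65), which is 8281 CPM observed against 5244 CPM carried over, and 2 to 3 of the 24 reference genes had a higher ratio. Snai2 followed at 1.39 ± 0.14, with 2 to 5 reference genes higher, then Cdh2 at 1.28 ± 0.06, Zeb1 at 1.16 ± 0.12, Zeb2 at 1.07 ± 0.21 and Vim at 1.02 ± 0.11. Below 1 were Twist1 at 0.93 ± 0.51, Snai1 at 0.91 ± 0.25 and Twist2 at 0.67 ± 0.06, where 22 to 23 of the 24 reference genes were higher. The reference genes' own ratios ran from 16.1 to 96.7% of the partner level over the TGF-β libraries, beside shares of 26.1 to 31.3%. None of the 9 genes stood outside this wide range in its library. Cdh1 was in the opposite position, observed at 89.5 times its carried-over level with vehicle and 253 times with TGF-β.

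**Figure D3:**
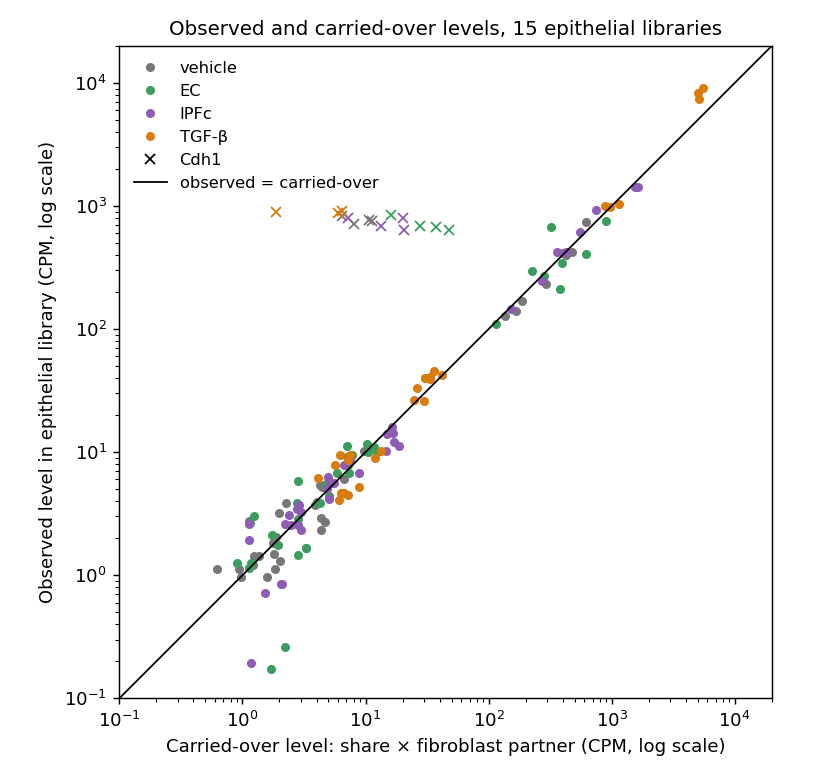
Observed level against the level expected from carried-over fibroblast RNA (both CPM, log scales) for the 10 genes in 15 epithelial libraries, coloured by treatment, with the line of equality. The 9 genes other than Cdh1 lie along the line over the whole range of levels, with Fn1 of the TGF-β libraries above it at the top right, and Cdh1 (crosses) lies far above it.

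IPFc changed fewer of the genes in epithelial libraries, and EC 1 of them. With IPFc, Zeb1, Zeb2, Vim and Fn1 were upregulated, 4 of 10 genes, where 4.10% of all genes passed the test 2.57% higher and 1.53% lower. Zeb1 was at 16.0, 14.3, 6.26 and 8.70 CPM for mice 1 to 4 and Zeb2 at 12.0, 11.1, 4.97 and 6.76 CPM, both overlapping the vehicle range but higher than vehicle in 4 of 4 mice (log2 fold changes 1.11 ± 0.21 and 1.20 ± 0.22, edgeR adjusted p = 0.00259 and 0.00184). Fn1 was at 1421, 1419, 614 and 936 CPM and Vim at 420, 423, 145 and 248 CPM, with lower values for mouse 3 in both. Their log2 fold changes were 1.11 ± 0.17 (adjusted p = 0.000293 in edgeR) and 0.81 ± 0.20 (adjusted p = 0.0241). The call of Vim was lost in DESeq2 (adjusted p = 0.091), without mouse 1 or mouse 2 (edgeR adjusted p = 0.0917 and 0.291) and without the mouse as a block (adjusted p = 0.186). The fibroblast share of mouse 3 was also the lowest of the IPFc libraries. Beyond carried-over RNA none of the 10 genes was called with IPFc, where 1.74% of all genes passed, none of the 10 had an unadjusted p under 0.05, and the values of these 4 genes were 0.06 to 0.21 on the log2 scale.

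With EC, Zeb2 rose in epithelial libraries to 9.49, 10.1, 5.38 and 6.83 CPM, overlapping with vehicle but higher in 4 of 4 mice (log2 fold change 1.12 ± 0.22, edgeR adjusted p = 0.00277). It was the 1 gene called, where 4.41% of all genes passed 1.96% higher and 2.44% lower. Zeb1 stood at 7.82, 11.6, 3.84 and 6.75 CPM, overlapping with vehicle (log2 fold change 0.56 ± 0.21, adjusted p = 0.191 in edgeR). Twist1 and Twist2 of mouse 4 were at 0.26 and 0.17 CPM, 3 reads for Twist1, the lowest of the EC libraries. Beyond carried-over RNA, Zeb2 was at 0.52 ± 0.19 (edgeR adjusted p = 0.193) and none of the 10 genes was called, where 2.81% of all genes passed. Zeb2 and Twist1 had an unadjusted p under 0.05 there, Twist1 at -1.12 ± 0.48.

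Set directly against TGF-β, IPFc left 9 of the 10 genes lower in epithelial libraries, where 37.2% of all genes passed and 18.7% were lower. The differences on the log2 scale ran from -1.24 ± 0.38 for Twist2 to -3.06 ± 0.19 for Fn1 (edgeR adjusted p = 0.0126 and 1.05e-10), and Cdh1 was not called (-0.18 ± 0.09, adjusted p = 0.143). Twist2 lost its call without mouse 3 or mouse 4 (adjusted p = 0.0631 and 0.0921) and without the mouse as a block (adjusted p = 0.0685), was at 0.60 beyond carried-over RNA (adjusted p = 0.306), and was called in the opposite direction after subtraction (5.72, edgeR adjusted p = 0.0426). After subtraction 5 genes were called, Zeb2, Cdh1, Cdh2 and Fn1 lower and Twist2 higher, where 26.3% of all genes passed. Beyond carried-over RNA, Fn1 at -0.65 ± 0.20 (adjusted p = 0.0212) and Cdh1 at -0.52 ± 0.09 (adjusted p = 0.000215) were called in edgeR, where 21.3% of all genes passed. The comparisons with vehicle share their vehicle libraries, and this one shares the TGF-β and IPFc libraries with them.

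**Figure D4:**
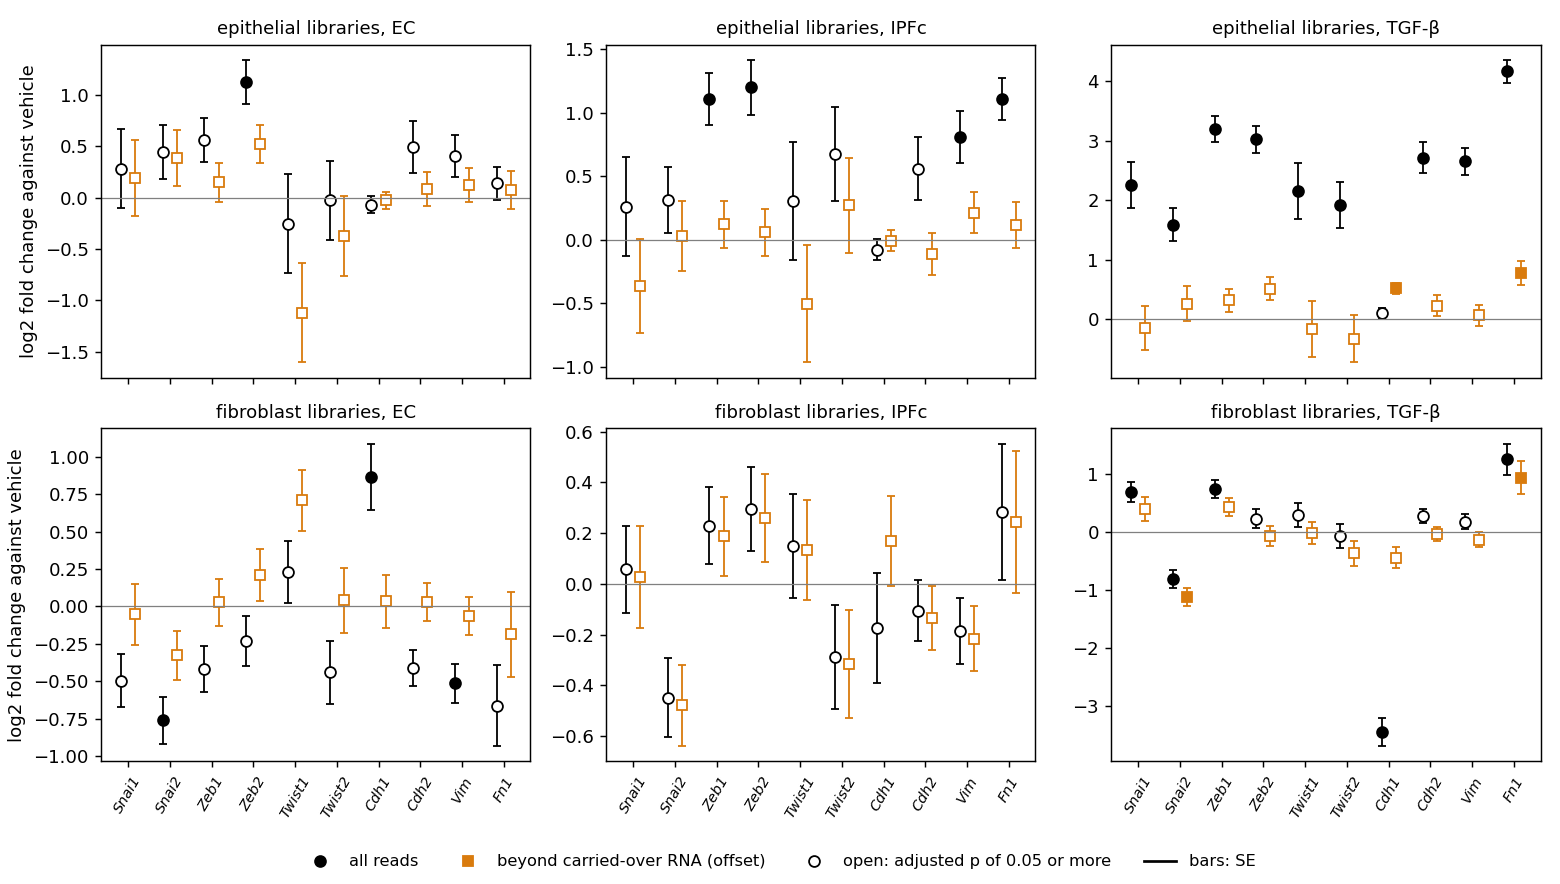
log2 fold change against vehicle with its SE for the 10 genes, by fraction and treatment, from all reads (circles) and beyond carried-over RNA (squares). Filled symbols have an adjusted p under 0.05, and the panels have different vertical scales. In epithelial TGF-β libraries 9 filled circles between 1.59 and 4.17 face squares near 0, of which Cdh1 (0.52) and Fn1 (0.77) are filled.

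In fibroblast libraries TGF-β raised Fn1, Zeb1 and Snai1 and lowered Snai2 and Cdh1, 5 of 10 genes, where 19.2% of 18048 genes passed, 6.39% higher and 12.8% lower. Fn1 went from 6409, 9407 and 9097 CPM with vehicle for mice 1, 3 and 4 to 18483, 18609, 19376 and 17726 CPM for mice 1 to 4, without overlap (log2 fold change 1.26 ± 0.28, edgeR adjusted p = 0.00293). Zeb1 went from 73.9, 101 and 73.8 CPM to 140, 151, 128 and 114 CPM, also without overlap (0.75 ± 0.15, adjusted p = 0.00179 in edgeR). Snai1 overlapped, at 18.6, 26.1 and 35.2 CPM with vehicle and 30.8, 26.2, 45.7 and 42.4 CPM with TGF-β, and was higher in 3 of 3 mice (0.70 ± 0.17, edgeR adjusted p = 0.00739).

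Snai2 was the 1 transcription factor that fell in these fibroblast libraries. It was at 52.2, 42.0 and 37.9 CPM with vehicle and at 21.0, 20.6, 23.7 and 24.1 CPM with TGF-β, every TGF-β library below every vehicle library (log2 fold change -0.81 ± 0.16, edgeR adjusted p = 0.00108). Allowing for the lower epithelial share it was at -1.12 ± 0.16 (edgeR adjusted p = 0.000162), and Fn1 at 0.95 ± 0.29 (adjusted p = 0.0327), the 2 genes called in that test, where 16.9% of all genes passed. Snai1 and Zeb1 were no longer called there, at 0.40 ± 0.20 and 0.44 ± 0.16 (adjusted p = 0.207 and 0.0699). Zeb2, Twist1, Twist2, Cdh2 and Vim did not pass the test in fibroblast TGF-β libraries, with log2 fold changes of 0.23, 0.30, -0.06, 0.28 and 0.18. With epithelial RNA subtracted from the fibroblast libraries, Snai2 was the 1 gene called with TGF-β (-1.15 ± 0.18, edgeR adjusted p = 0.00421), where 4.82% of all genes passed, and none was called with EC, with IPFc or for IPFc against TGF-β, where 0.184%, 0.0172% and 3.75% passed.

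Cdh1 was at 119, 149 and 202 CPM in fibroblast vehicle libraries and at 8.20, 21.9, 7.23 and 20.6 CPM with TGF-β, a log2 fold change of -3.46 ± 0.24 (edgeR adjusted p = 1.49e-08). The epithelial share of these libraries fell from 22.8% to 2.30% at the same time. Measured against the carried-over epithelial RNA, Cdh1 was observed at 0.89 ± 0.12 times that level with vehicle, 0.93 ± 0.24 with EC, 1.05 ± 0.21 with IPFc and 0.73 ± 0.13 with TGF-β (n = 3, 4, 4 and 4). Beyond it the change with TGF-β was -0.44 ± 0.18 (edgeR adjusted p = 0.128).

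With EC, fibroblast libraries had less Snai2 and Vim and more Cdh1, 3 of 10 genes, where 7.11% of all genes passed, 4.28% higher and 2.84% lower. Snai2 was at 29.7, 21.3, 21.7 and 24.8 CPM, below all vehicle libraries (log2 fold change -0.76 ± 0.16, edgeR adjusted p = 0.00767). Vim was at 2268, 2163, 2172 and 1970 CPM against 3042, 3158 and 3567 CPM with vehicle, also separate (-0.52 ± 0.13, adjusted p = 0.0239 in edgeR). Cdh1 rose to 166, 284, 304 and 420 CPM (0.87 ± 0.22, edgeR adjusted p = 0.0265), in step with the epithelial share, which was 44.0% with EC. Allowing for that share none of the 10 genes was called, where 0.310% of all genes passed, and the values of Snai2, Vim and Cdh1 were -0.33, -0.06 and 0.03 on the log2 scale. Twist1 alone had an unadjusted p under 0.05 there, at 0.71 ± 0.20. Without mouse 1, whose EC library had the fewest reads and the lowest Snai1, Zeb1, Zeb2 and Fn1 of its group, 7 genes were called, and without mouse 3 or mouse 4 none.

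With IPFc no gene of the 10 was called in fibroblast libraries, where 0.449% of all genes passed, 0.305% higher. In edgeR, Snai2 had an unadjusted p under 0.05 (log2 fold change -0.45 ± 0.16, adjusted p = 0.476), and DESeq2 called 0 as well. Against TGF-β, IPFc left Cdh1 higher by 3.29 ± 0.22 on the log2 scale (edgeR adjusted p = 1.29e-08) and Snai1, Zeb1, Cdh2, Vim and Fn1 lower by 0.64, 0.52, 0.38, 0.37 and 0.98, 6 of 10 genes, where 17.4% of all genes passed, 12.1% higher and 5.33% lower. Without replicate 3 this count was 1, and allowing for epithelial RNA the genes called were Snai2 (0.64 ± 0.15, edgeR adjusted p = 0.00781) and Cdh1 (0.60 ± 0.17, adjusted p = 0.0247), where 14.0% of all genes passed.

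The response to TGF-β differed between the fractions in all 10 genes, each more positive in epithelial libraries, where 27.5% of all genes passed and 20.2% were more positive. The difference on the log2 scale was largest for Cdh1 at 3.58 ± 0.26, followed by Fn1 at 2.93 ± 0.37 and Zeb2 at 2.81 ± 0.29, and smallest for Snai1 at 1.56 ± 0.41 (edgeR adjusted p = 2.62e-10, 8.01e-07, 3.51e-08 and 0.00554), beside a median of 0.21 over all genes. After subtraction of the other fraction's RNA from each library, 4 genes were called, Zeb2, Cdh2, Vim and Fn1, where 13.1% of all genes passed. The limit of subtraction given above applies here as well. The response to EC differed in 4 genes, where 4.59% of all genes passed: Zeb2 by 1.34 ± 0.28, Snai2 by 1.20 ± 0.30 and Zeb1 by 0.97 ± 0.28 were more positive in epithelial libraries and Cdh1 was more negative by -0.94 ± 0.24 (edgeR adjusted p = 0.00614, 0.0192, 0.0443 and 0.0208). Without mouse 3 or mouse 4, or after subtraction, this count was 0. The response to IPFc differed in 0 genes by edgeR and by DESeq2, where 0.229% of all genes passed, and 7 of the 10 genes had an unadjusted p under 0.05 in edgeR, the lowest for Vim (1.01 ± 0.29, adjusted p = 0.213).

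The ratio of Cdh1 to Cdh2 within a library, often read as a cadherin switch, hardly depends on how libraries are scaled. In epithelial libraries its log2 (after adding 0.5 CPM to each) was 6.15, 7.17, 7.13 and 7.08 with vehicle and 4.41, 4.46 and 4.48 with TGF-β, with no overlap. With EC it averaged 6.33 ± 0.85 and with IPFc 6.26 ± 0.69, both overlapping with vehicle. In fibroblast libraries the mean was 0.63 ± 0.54 with vehicle, 1.93 ± 0.59 with EC, 0.59 ± 0.72 with IPFc and -3.09 ± 0.89 with TGF-β. The ratio fell with TGF-β in both fractions, through more Cdh2 reads in epithelial libraries and fewer Cdh1 reads in fibroblast libraries, and both moved with the share of the other fraction.

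**Figure D5:**
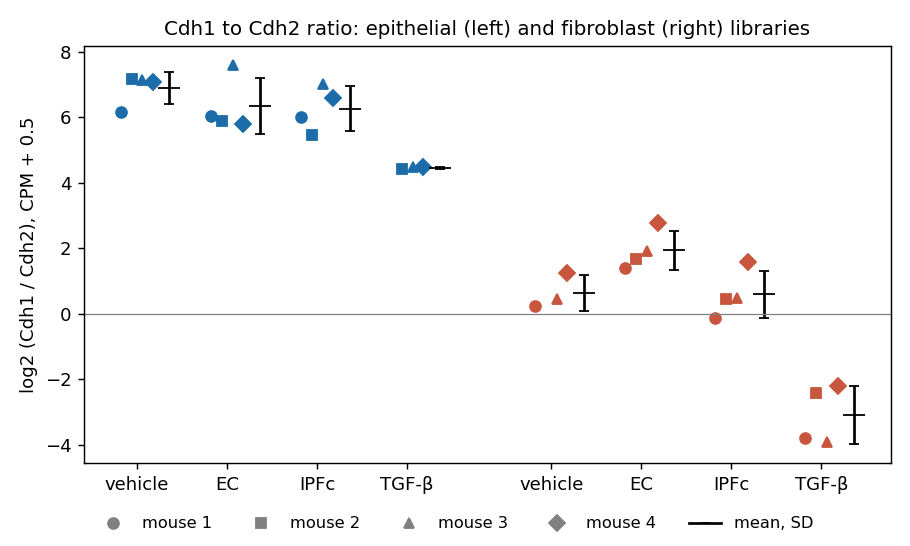
log2 ratio of Cdh1 to Cdh2 per library (0.5 CPM added to each), epithelial libraries in blue and fibroblast libraries in red, with mice as symbols and bars for mean and SD. TGF-β gives the lowest values in both fractions, near 4.45 in epithelial and between -3.92 and -2.22 in fibroblast libraries.

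Other genes of the same biology were followed as fixed lists. The shares of all genes to set beside the counts for epithelial TGF-β libraries were 41.1% called, 21.0% higher and 20.1% lower, and 21.2% called beyond carried-over RNA, 7.98% higher. There 17 of 20 mesenchymal genes rose and 1 fell (median log2 fold change 2.02, beside 0.03 over all genes), with Tagln at 6.60, Acta2 at 5.71 and Cdh11 at 4.63. Beyond carried-over RNA 9 of them were higher and 1 lower, among them the contractile genes Tagln (1.37 ± 0.26) and Acta2 (0.97 ± 0.16), while Cdh11 was not (0.35 ± 0.14, edgeR adjusted p = 0.0987). Cdh11, Mmp2, Sparc, Col1a1 and Col3a1 of this list, and Prrx1 of the next, are fibroblast reference genes that set the share. Their values beyond carried-over RNA are therefore in part fixed by the method, with every treatment. Of 16 other EMT regulators 10 rose and 3 fell (median 0.51), led by Foxc2, Sox9 and Hmga2 at 3.06, 2.94 and 2.59, and beyond carried-over RNA those 3 were at -0.03, 0.09 and 0.00. Beyond carried-over RNA 1 of the list was higher and 3 were lower. The BMP target Id1 fell by 2.46 on the log2 scale, and was at -2.34 ± 0.20 beyond carried-over RNA.

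Of 12 regulators of the epithelial state, 9 fell in epithelial TGF-β libraries and none rose, where 20.1% of all genes fell (median -0.70), led by Grhl3 at -2.35, the splicing factor Esrp2 at -1.29 and Ovol1, a repressor of Zeb1, at -1.17. Beyond carried-over RNA 6 were lower and 2 higher, where 21.2% of all genes passed. Of 12 junction partners and desmosome genes 2 rose and 2 fell, among them β-catenin (Ctnnb1) at 0.74 and the desmosome gene Perp at -0.96 on the log2 scale, with a median of -0.04. That is 4 of 12, where 41.1% of all genes passed, and beyond carried-over RNA 4 were higher and 2 lower. Of 8 other cadherins 6 were tested, of which 4 rose and 1, Cdh15, fell by 1.47, where 41.1% of all genes passed. Cdh10 went from 0.136 ± 0.176 CPM with vehicle to 6.02 ± 3.01 CPM with TGF-β and Cdh6 from 0.30 ± 0.254 to 6.82 ± 1.22 CPM. Beyond carried-over RNA the log2 fold changes of Cdh10 and Cdh6 were 4.89 ± 0.62 and 4.51 ± 0.52, and Cdh4 was at 2.08 ± 0.41, so these cadherins differed from Cdh2 in being called there.

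Genes of TGF-β signalling were changed in both fractions. Of 16 genes of TGF-β signalling 10 rose and 1 fell in epithelial TGF-β libraries, where 21.0% of all genes rose (median 0.45), and 6 were higher and 2 lower beyond carried-over RNA, with the feedback gene Skil at 1.79 and 0.96 ± 0.13 beyond carried-over RNA. Tgfbi, a matrix gene induced by TGF-β, rose by 1.21, with 1.31 ± 0.28 beyond carried-over RNA. Its level was low and spread widely, at 2.73 ± 2.08 CPM with vehicle and 6.85 ± 4.80 CPM with TGF-β. In fibroblast TGF-β libraries Tgfbi was not called (-0.49 ± 0.36, edgeR adjusted p = 0.416). Tgfb1 rose by 1.69 and Smad7 by 0.52, and beyond carried-over RNA both were not called (-0.12 and 0.14). In fibroblast TGF-β libraries, where 19.2% of all genes passed, 6.39% higher and 12.8% lower, 14 of 20 mesenchymal genes rose and 3 fell, and 5 of 16 signalling genes rose and 4 fell, with Tgfb1 at 1.44 ± 0.14 (edgeR adjusted p = 5.77e-07). Of the epithelial state regulators 8 of 12 fell there and none rose, and of the junction genes 7 of 12 fell and 2 rose, β-catenin (Ctnnb1) at 0.74 and plakoglobin (Jup) at 1.15. Allowing for epithelial RNA, where 16.9% of all genes passed, 0 of the state regulators were lower and 1 higher, and 1 of the junction genes was lower and 3 were higher. Esrp1, Esrp2, Grhl2, Elf3 and Ehf among the state regulators are epithelial reference genes that set the share. Their values there are therefore in part fixed by the method.

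With IPFc, 7 of 20 mesenchymal genes rose and 1 fell in epithelial libraries, where 4.10% of all genes passed and 2.57% were higher, and 1 was higher and 1 lower beyond carried-over RNA, where 1.74% passed. With EC, 1 rose and 2 fell, where 4.41% of all genes passed, and 0 were higher and 2 lower beyond carried-over RNA, where 2.81% passed. Of the epithelial state regulators 3 rose with EC in epithelial libraries, where 1.96% of all genes rose, and 3 were higher beyond carried-over RNA, where 2.81% passed. With IPFc 0 were called, where 4.10% of all genes passed.

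Genes whose levels ran most like those of the 10 genes were sought over the 15 libraries of each fraction, which share treatments, mice and the RNA of the other fraction, by Pearson's r of log2 CPM. In epithelial libraries Fn1 ran with Fbn1 and Ccdc80 (r = 1.00 and 0.99), Vim with Cpe and Serpinf1 (both 0.99), Zeb1 with Lsp1 and Mxra8 (0.99 and 0.98), Zeb2 with Lix1l and Prrx1 (0.98 and 0.97) and Cdh2 with Fstl1 and Hoxb9 (both 0.98). Fbn1, Serpinf1, Prrx1 and Fstl1 are among the fibroblast reference genes. Cdh1 ran less closely with any gene there, most with Slc4a4 and Foxq1 (both 0.89). In fibroblast libraries Cdh1 ran with Mlph and Sema4d (both 1.00), Fn1 with Map4 and Col6a3 (1.00 and 0.99) and Zeb1 with Cep170 and Fam126a (both 0.98), while Snai2 had its closest match in Id2 at 0.88.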

How the data were processed

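RNA of 30 libraries had been sequenced with a directional kit on a NovaSeq. The authors deposited raw read counts per gene, after trimming with Trimmomatic 0.30. The genome build is GRCm38.p6 in the methods and GRCm39 in the labels, and the aligner and counter are not given in the sources used here. The 10 genes and all lists were chosen with earlier results of these data known.

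Counts were tested with edgeR 4.0.16 (R 4.3.3, TMM scaling, quasi-likelihood test), Benjamini-Hochberg adjusted over all genes tested, in 1 model per fraction with the 4 treatments and the mouse as a block, and in 1 model of both fractions for differences between them. Groups came from the labels. Cultures of 1 mouse were paired because they share the animal; deviations of same-mouse libraries correlated at a mean r of 0.354 in epithelial and 0.356 in fibroblast libraries, against -0.112 and -0.116 between mice. Carried-over RNA was entered as an offset per gene and library, or subtracted. DESeq2 1.42.0, other scalings and count minimums, no block and leaving out each mouse were alternatives. The tests were run on simulated data, where 117 to 167 of 200 changed genes were found, with 6 to 11 false calls. The simulated counts for the offset took the share as exact, so they do not check its error. List genes were named for the comparisons of TGF-β with vehicle, and likeness was ranked among genes of at least 5 CPM. Some genes that this rule names are not reported here.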

Additional observations from a re-analysis of the deposited data

Results flagged for a closer look

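Of 72 groups of values checked for a library far from the others, 5 held one, where chance gives about 1 in 20. In the fibroblast EC libraries the epithelial share of mouse 4 was 58.2%, beside 30.7% by the Y-linked genes. Fn1 of the epithelial vehicle library of mouse 1 was 747 CPM, and the log2 ratio of Cdh1 to Cdh2 of that group had its lowest value there at 6.15. In the epithelial EC libraries Cdh2 of mouse 3 was 3.89 CPM and the log2 ratio of Cdh1 to Cdh2 of the same library 7.59. The fibroblast share was the highest of its group in the first of these epithelial libraries, at 9.60%, and the lowest in the second, at 5.34%.

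The response to EC differed between the fractions, by a test of the difference itself in edgeR, for Snai2 (1.20), Zeb1 (0.97), Zeb2 (1.34) and Cdh1 (-0.94), in log2 units with epithelial minus fibroblast response. The response to TGF-β differed for Snai1 (1.56), Snai2 (2.41), Zeb1 (2.47), Zeb2 (2.81), Twist1 (1.86), Twist2 (1.95), Cdh1 (3.58), Cdh2 (2.46), Vim (2.497) and Fn1 (2.93). The share of the other fraction's RNA changed in opposite directions in the fractions with TGF-β.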

How the results depend on the processing

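Number of the 10 genes called, by alternative. Without a count minimum it was 3 for EC in epithelial libraries (1 in the report), 7 for the difference between fractions in the EC response (4) and 4 for that in the IPFc response (0). Without the replicate block it was 0 for EC and 2 for IPFc in epithelial libraries (1 and 4), 1 for EC and 2 for IPFc against TGF-β in fibroblast libraries (3 and 6), and 0 for the difference in the EC response. With the other fraction's RNA subtracted it was 0 for EC and IPFc and 5 for TGF-β and IPFc against TGF-β in epithelial libraries (9 and 9, with Twist2 called the opposite way in the latter), 0 for EC, 1 for TGF-β (5) and 0 for IPFc against TGF-β in fibroblast libraries, and 0 and 4 for the difference in the EC and TGF-β responses. With it as an offset it was 0, 0, 2 and 2 for EC, IPFc, TGF-β and IPFc against TGF-β in epithelial libraries and 0, 2 and 2 for EC, TGF-β and IPFc against TGF-β in fibroblast libraries. Leaving out 1 mouse gave 0 to 7 for EC and 1 to 6 for IPFc against TGF-β in fibroblast libraries, and 0 to 5 for the difference in the EC response. The cause was not tested.

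The share differences from vehicle, in percentage points, were 21.3 for EC in fibroblast libraries (18.2 by the lower quartile, 20.2 to 23.1 without 1 mouse), 22.3 for TGF-β in epithelial libraries (20.5 to 23.4) and -20.5 for TGF-β in fibroblast libraries (-22.8 to -16.4), where designs without a mouse are too small to pass. The median over the 9 genes of each gene's mean observed over carried-over level, another quantity than the medians over single libraries in the report, was 1.05, 1.07, 1.00 and 1.07 for vehicle, EC, IPFc and TGF-β. It was 1.21, 1.26, 1.18 and 1.24 by the lower quartile and 0.988, 0.978, 1.14 and 0.931 by Xist, and without 1 mouse 0.996 to 1.06, 1.05 to 1.12, 0.971 to 1.06 and 1.07 to 1.17.

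Signs turned in 64 values of the 10 genes, 52 of them not called in the report, and in 11 of list genes. They are given on the log2 scale against vehicle unless named otherwise. After subtraction: epithelial EC Zeb1 -0.057, Cdh2 -0.0074 and Fn1 -0.15, epithelial IPFc Snai1 -1.92, Snai2 -0.79, Zeb1 -0.13, Cdh1 0.0074 and Cdh2 -0.88, epithelial TGF-β Snai1 -0.65, Twist2 -3.86, Sox9 -4.69 and Tgfb1 -0.50, epithelial IPFc against TGF-β Twist2 5.72, fibroblast EC Zeb2 0.16 and Twist2 0.0047, fibroblast IPFc Cdh1 2.31, fibroblast TGF-β Zeb2 -0.095, Twist1 -0.048, Cdh2 -0.058, Vim -0.16, Dsp 0.35, Ovol1 1.43, Esrp2 3.09 and Snai3 1.75, fibroblast IPFc against TGF-β Twist1 0.17 and Twist2 0.069, epithelial against fibroblast, TGF-β Fn1 0.62, difference between fractions in the EC response Fn1 -1.23, difference between fractions in the IPFc response Snai1 -1.34, Snai2 -0.098, Zeb1 -0.37, Cdh1 -2.21 and Cdh2 -0.61, difference between fractions in the TGF-β response Snai1 -0.34 and Twist2 -3.43. With an offset: epithelial IPFc Snai1 -0.37, Twist1 -0.50 and Cdh2 -0.11, epithelial TGF-β Snai1 -0.15, Twist1 -0.17, Twist2 -0.33, Foxc2 -0.030 and Tgfb1 -0.12, epithelial IPFc against TGF-β Twist2 0.60 and Vim 0.15, fibroblast EC Zeb1 0.027, Zeb2 0.21, Twist2 0.041 and Cdh2 0.028, fibroblast IPFc Cdh1 0.17, fibroblast TGF-β Zeb2 -0.068, Twist1 -0.011, Cdh2 -0.027, Vim -0.13, Dsp 0.049, Esrp2 0.23 and Elf3 0.20, fibroblast IPFc against TGF-β Twist1 0.14 and Twist2 0.046. Without the replicate block: epithelial EC Twist2 0.044, fibroblast IPFc Snai1 -0.073. Over the leave-one-out fits the ranges were: epithelial EC Snai1 -0.030 to 0.89, Twist1 -0.50 to 0.047, Twist2 -0.19 to 0.28 and Fn1 -0.12 to 0.27, epithelial IPFc Snai1 -0.20 to 0.97 and Twist1 -0.37 to 0.74, epithelial TGF-β Cdh1 -0.012 to 0.16, fibroblast IPFc Snai1 -0.055 to 0.17 and Twist1 -0.12 to 0.33, fibroblast TGF-β Twist2 -0.21 to 0.095, difference between fractions in the IPFc response Snai1 -0.27 to 1.05 and Twist1 -0.43 to 0.92. Subtraction takes levels near or below the carried-over level to about 0, which makes its fold changes extreme.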
